A study of Homo sapiens with 12 samples.

Results

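The 10 genes described here encode ligands that a breast cancer cell presents on its surface to lymphocytes or, for CD47, to macrophages. They are the adhesion ligands ICAM1 and CD58, the checkpoint ligands CD274 (the PD-1 ligand), CD276, VTCN1 and CD47, the nectin-family ligands PVR and NECTIN2, and the stress ligands MICA and MICB. They were chosen by name with earlier results of these data known, so counts of members called are descriptions and not independent tests. All 10 were found among the 62696 gene identifiers counted in both lines. Poly-A RNA-seq was available for SKBR3 and MDA-MB-453, established cell lines that the study uses for the HER2 subtype of breast cancer, with 3 untreated and 3 TWEAK-treated biological replicates of each (12 libraries in all). TWEAK is a cytokine of the TNF family whose receptor is Fn14, the product of TNFRSF12A. Treated cells of both lines spent 8 h in Opti-MEM, were then given human TWEAK at 10 ng/ml, were given it again 24 h later and were harvested at 48 h. Handling of the untreated replicates is not described, since their labels repeat the text of the treated ones. Neither line is labelled as engineered, each stands for 1 tumour, and the labels name no other cells in the cultures. Transcripts were measured, not protein on the surface.

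Each of these ligands is known by the receptor that reads it. ICAM1 binds the integrin LFA-1 and holds T cells and natural killer (NK) cells to their target, and CD58 binds CD2 and gives T cells a costimulatory signal. CD274 engages the inhibitory receptor PD-1 on T cells, CD276 and VTCN1 belong to the same B7 family, and CD47 binds SIRP-alpha on macrophages and restrains phagocytosis. PVR and NECTIN2 are shared by the activating receptor DNAM-1 and the inhibitory receptor TIGIT. MICA and MICB, which are close copies of each other, are read by NKG2D, an activating receptor of NK cells and cytotoxic T cells. ICAM1 is a classical NF-kB target, and CD274 is known for its induction by interferon-gamma through IRF1.

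The members lie on 6 chromosomes (hg38, GENCODE release 44). ICAM1 (chr19:10271093-10286615, plus strand), PVR (chr19:44643798-44666162, plus) and NECTIN2 (chr19:44846175-44889223, plus) share chromosome 19. CD58 (chr1:116514534-116571039, minus) and VTCN1 (chr1:117143587-117210960, minus) share chromosome 1. CD274 lies at chr9:5450503-5470566 (plus), CD276 at chr15:73683966-73714514 (plus) and CD47 at chr3:108043091-108091862 (minus). MICA (chr6:31399784-31415315, plus) and MICB (chr6:31494881-31511124, plus) are neighbours in the MHC region. Of the exonic bases of ICAM1, 23.6% are also covered by ICAM4-AS1 on the opposite strand, which held at most 9 counts in any library. Of those of PVR, 19.4% are shared with ENSG00000279095 on its own strand, which held 0 counts in every library. The strand setting of the counting, and its treatment of reads that fit both MICA and MICB, are not given in the sources used here.

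The DNA before the start of each gene was searched for 5 short motifs, because several members changed with TWEAK, a cytokine known to activate NF-kB. RefSeq windows of 250 bases (GRCh38.p14) were available for all 10 members, with 2 starts for CD276, and both strands were read. The kappaB pattern GGNNNTTCC, which 17.1% of all 35116 windows contain, was found once each before ICAM1, CD58, CD274, the first start of CD276 and VTCN1. The interferon-response patterns were rarer. The GAS pattern TTCNNNGAA (6.57% of windows) was found before ICAM1 and CD274, and the ISRE pattern (3.02%) was found only before CD274, as 2 matches that overlap each other. The heat shock pattern GAANNTTC (5.78%) was found before MICA and MICB, and the AP-1 pattern TGANTCA (6.57%) before no member. CD47, PVR and NECTIN2 had no match to any of the 5 patterns in these windows. No match to one pattern overlapped a match to another. A match describes the letters of the window and is not a measured binding site.

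The stretch before ICAM1, the member with the largest fold change under TWEAK in SKBR3, and the stretch before CD274, the next largest there, are printed on the strand of the gene with the matches in capitals. In ICAM1 (chr19:10270870-10271092, plus strand, GRCh38.p14) they are the kappaB match 186 bases and the GAS match 75 bases before the RefSeq start. In CD274 (chr9:5450292-5450502, plus strand, GRCh38.p14) they are the pair of ISRE matches from 208 bases, the GAS match 125 bases and the kappaB match 111 bases before it.
ICAM1: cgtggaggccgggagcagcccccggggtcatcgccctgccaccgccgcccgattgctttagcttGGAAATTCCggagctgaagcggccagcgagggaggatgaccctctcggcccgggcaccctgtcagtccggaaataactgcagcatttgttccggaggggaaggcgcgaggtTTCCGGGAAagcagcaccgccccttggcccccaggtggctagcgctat
CD274: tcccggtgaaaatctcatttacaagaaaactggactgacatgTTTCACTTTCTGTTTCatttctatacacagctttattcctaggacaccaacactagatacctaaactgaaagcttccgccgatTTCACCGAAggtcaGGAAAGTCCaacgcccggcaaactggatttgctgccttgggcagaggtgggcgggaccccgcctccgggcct

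The remaining kappaB matches and the heat shock matches are shown with a few flanking bases, so that the letters of the core can be compared. The kappaB cores (capitals) of CD58 (chr1:116571088-116571118, minus strand), CD276 (chr15:73684149-73684179, plus strand) and VTCN1 (chr1:117211154-117211177, minus strand) start 81, 223 and 246 bases before their RefSeq starts, and the core of VTCN1 has the same letters as that of CD274. Those of CD58 and VTCN1 lie outside the annotated gene, and that of CD276 lies in an intron of a longer transcript. The heat shock cores of MICA (chr6:31403449-31403478, plus strand) and MICB (chr6:31497995-31498024, plus strand) start 135 and 139 bases before their starts. That of MICA lies in an exon or an intron depending on the annotated transcript, and that of MICB in an intron of a longer transcript. Around these cores 106 of 118 compared bases (89.8%) are identical between MICA and MICB.
CD58: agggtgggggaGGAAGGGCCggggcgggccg
CD276: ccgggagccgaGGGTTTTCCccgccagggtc
VTCN1: aggaGGAAAGTCCtgctgaatgca
MICA: ccagcccactgGAATTTTCtcttccaagcg
MICB: ccaggccgctaGAATTTTCtcttctgaacg

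The libraries held 24773003 to 35208304 counts on genes. The second TWEAK replicate of SKBR3 stood apart from its group, and that of MDA-MB-453 less so. Set against the other TWEAK libraries gene by gene, it gave a chi-square of 21.1 and 23.8 per degree of freedom in SKBR3, and of 10.2 and 5.31 in MDA-MB-453. The other pairs of replicates lay between 1.78 and 5.74, the highest being the first and the third untreated SKBR3 replicates. The calls that change without the second TWEAK replicates are given beside the genes they concern. ERBB2, which encodes HER2, was the highest of 8 epithelial and HER2 markers in both lines, at a mean of 7580 CPM in untreated SKBR3 and 890 CPM in untreated MDA-MB-453, while the epithelial adhesion gene CDH1 was nearly absent from SKBR3 (0.162 CPM). The summed level of 12 leukocyte markers was 5.18 to 5.82 CPM in untreated and 6.88 to 8.18 CPM in TWEAK-treated SKBR3, and 3.06 to 3.81 CPM over all MDA-MB-453 libraries. It thus moved with TWEAK in SKBR3, where the integrin chain ITGB2 rose from 3.32 to 5.18 CPM (adjusted p = 0.0214, edgeR), and its part in the results of that line was not tested. The pan-leukocyte marker PTPRC stayed at or below 0.158 CPM on average in every group. Of the genes for the ligands' own receptors, TIGIT had no count in any library, and CD2, KLRK1 (NKG2D) and PDCD1 (PD-1) had at most 1. CD226 (DNAM-1) reached 14 counts, with a mean of 0.355 CPM in untreated MDA-MB-453, and ITGAL, which with ITGB2 forms the ICAM1 receptor LFA-1, stood at 2.03 CPM there and was the highest leukocyte marker of that line. The summed level of 5 fibroblast and endothelial markers was 19.9 to 22.7 CPM in untreated and 21.6 to 23.7 CPM in TWEAK-treated SKBR3, and 107 to 123 CPM over the MDA-MB-453 libraries, nearly all of it COL1A1 (120.3 CPM in untreated MDA-MB-453). The endothelial marker CDH5 rose in SKBR3 from 1.74 to 4.21 CPM (1.26, adjusted p = 0.000855), and its part in the results was not tested.

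Per kilobase of exon, untreated SKBR3 cells were led by VTCN1 and NECTIN2, and untreated MDA-MB-453 cells by NECTIN2 alone. In SKBR3 the mean levels were 60.4 CPM per kb for VTCN1, 50.5 for NECTIN2, 12.1 for PVR, 7.44 for CD58, 6.20 for CD47 and 4.96 for CD276, and no neighbours in this order overlapped between libraries. ICAM1 (1.14 CPM per kb) and CD274 (1.02) followed and overlapped each other. MICA (0.0237) and MICB (0.00985) were last, with at most 3 counts in any untreated library. In MDA-MB-453 the order was NECTIN2 at 41.0 CPM per kb, MICA at 5.07, CD47 at 2.54, PVR at 2.24, ICAM1 at 1.94, VTCN1 at 1.58, CD58 at 1.36, CD276 at 1.08, MICB at 0.271 and CD274 at 0.0297, and only VTCN1 and CD58 overlapped. The lengths are those of all annotated exons of a gene and may exceed that of the transcript in these cells.

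**Figure D1:**
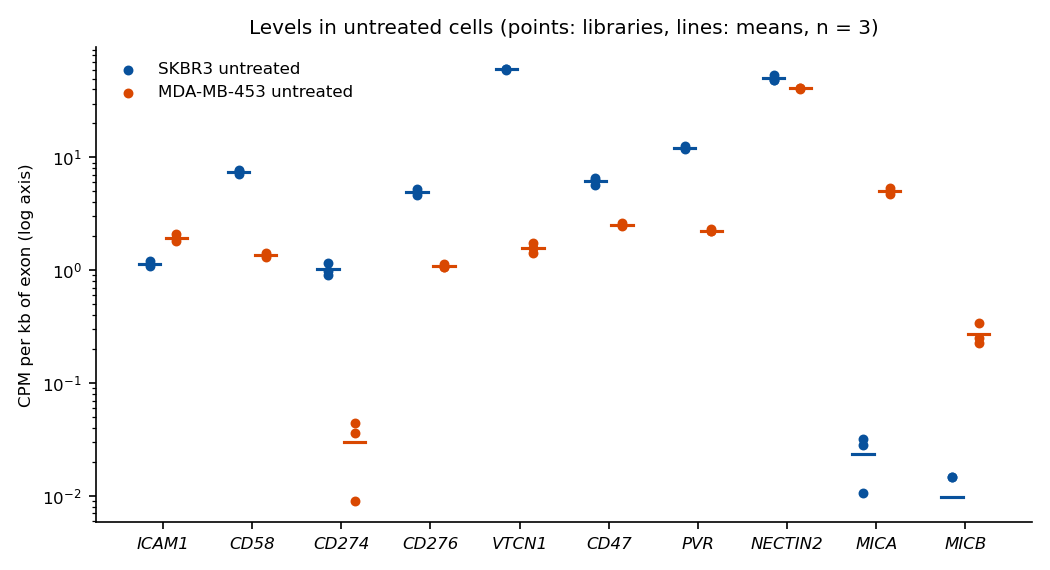
Level of each ligand gene in untreated cells, in CPM per kb of exon on a log axis; points are libraries, lines are means of 3, and a library at 0 (1 of MICB in SKBR3) is not drawn. VTCN1 spans from 60.4 in SKBR3 to 1.58 in MDA-MB-453, NECTIN2 is high in both lines, and MICA is near the bottom of the scale in SKBR3 and CD274 in MDA-MB-453.

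Between the untreated lines, 7 members were past the filter on low counts in both untreated groups, and these 7 passed the test (adjusted p of at most 0.1), 1 with more transcript in MDA-MB-453 and 6 with less. CD274, MICA and MICB entered the test through 1 line alone, where they are high, so their calls are not counted and their reads are given. The share of 7 is to be read against the background, since 84.2% of the 17201 genes tested differed between the lines (40.7% with more and 43.5% with less transcript in MDA-MB-453) and 84.3% did not overlap between the untreated groups. The counts of each line were deposited as a table of their own, so the line and anything else that differs between the tables cannot be told apart.

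The checkpoint ligands had less transcript in MDA-MB-453. VTCN1 stood at 185, 183 and 179.8 CPM in the untreated SKBR3 libraries and at 4.79, 4.27 and 5.25 CPM in those of MDA-MB-453. Every SKBR3 library was far above every MDA-MB-453 library, a log2 difference of -5.26 (SE 0.0709, adjusted p = 8.91e-20). CD274 counted 133, 97 and 91 reads in untreated SKBR3 and only 1, 5 and 4 in MDA-MB-453. On these counts it was 34.4-fold higher in SKBR3 (95% counting interval 18.4 to 72.3). CD276 was lower by a log2 difference of -2.19 (SE 0.0945) and CD47 by -1.29 (SE 0.0741), again without overlap.

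The stress ligands showed the opposite order. MICA counted 554, 505 and 533 reads in untreated MDA-MB-453 and 3, 3 and 1 in untreated SKBR3, a ratio of 213 with a counting interval of 103 to 529. MICB counted 17, 26 and 19 reads against 0, 1 and 1, a ratio of 29.0 with an interval of 7.69 to 244. Neither gene was above the limit that 3 counts set in SKBR3 (0.108 to 0.124 CPM in the untreated libraries), so their level there is not resolved at this depth. Both intervals cover counting error only.

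The nectin-family and adhesion ligands differed in both directions. CD58 lay at 12.7 to 13.7 CPM in SKBR3 and 2.31 to 2.55 CPM in MDA-MB-453, a log2 difference of -2.45 (SE 0.105). PVR lay at 123 to 131 CPM and 23.0 to 23.9 CPM (-2.44, SE 0.0542). ICAM1, unlike CD58, had more transcript in MDA-MB-453, at 6.24 to 7.17 CPM against 3.73 to 4.17 CPM (0.77, SE 0.108, adjusted p = 4.14e-06). NECTIN2 was the most even member, at 151 to 155 CPM against 182 to 202 CPM (-0.30, SE 0.0551, adjusted p = 7.34e-05), and its difference was -0.17 after correction for GC content and gene length.

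TWEAK changed 6 of the 8 members that could be tested in SKBR3, 4 upwards (ICAM1, CD274, CD47 and CD276) and 2 downwards (VTCN1 and PVR). Over all 15661 genes tested in SKBR3, 10.4% passed the same threshold, 6.60% higher and 3.82% lower. With single libraries left out, 926 to 2780 genes passed, beside 1633 in the full fit. The median log2 fold change of the 8 members was 0.15, beside -0.01 over all genes tested. CD58 and NECTIN2 did not pass, and MICA and MICB had too few counts to be tested. In these bulk libraries, fewer cells with a transcript and less of it per cell cannot be told apart.

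ICAM1 had the largest response. Its level was 3.88, 3.73 and 4.17 CPM in the untreated SKBR3 replicates and 21.7, 24.3 and 19.96 CPM in the TWEAK-treated ones. Every treated library was well above every untreated one. The log2 fold change was 2.48 (SE 0.109), a 5.58-fold rise (adjusted p = 1.7e-07), which placed ICAM1 at rank 18 by p among the genes tested. Per kilobase, ICAM1 moved from 1.14 to 6.38 CPM, and its TWEAK-treated libraries overlapped those of CD276 (6.52 CPM per kb).

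Among the checkpoint ligands, 3 rose and VTCN1 fell. CD274 stood at 4.78, 4.02 and 3.75 CPM without and 11.04, 9.94 and 9.23 CPM with TWEAK, and the groups were well separated. Its log2 fold change was 1.26 (SE 0.122, adjusted p = 6.58e-05), a 2.39-fold rise. CD47 stood at 51.8, 54.4 and 47.0 CPM without and 99.9, 84.4 and 93.9 CPM with TWEAK. The lowest treated library of CD47 was the second replicate, yet it lay above all untreated ones, and the log2 fold change was 0.86 (SE 0.0805, adjusted p = 5.1e-05). CD276 stood at 25.6, 28.7 and 27.2 CPM without and 35.4, 36.0 and 35.9 CPM with TWEAK. Its treated libraries were almost equal and all higher, by 0.39 (SE 0.0694, adjusted p = 0.00467).

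VTCN1 went the other way, from 185, 183 and 179.8 CPM to 131, 137 and 136 CPM. The drop was small beside its level but clear beside the spread of the replicates, with a log2 fold change of -0.45 (SE 0.0554, adjusted p = 0.000392). In consequence VTCN1, the first in untreated cells per kilobase, overlapped NECTIN2 after TWEAK (44.5 and 47.9 CPM per kb).

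Of the nectin-family ligands, PVR fell and NECTIN2 did not pass. PVR stood at 125, 123 and 131 CPM without and 98.0, 104 and 102 CPM with TWEAK, and all treated libraries were below all untreated ones (-0.32, SE 0.0598, adjusted p = 0.00595). NECTIN2 stood at 183, 182 and 202 CPM without and 169, 192 and 177 CPM with TWEAK. These groups overlapped, and the log2 fold change of -0.08 had a 95% interval of -0.24 to 0.07 (adjusted p = 0.575). CD58, the second adhesion ligand, stood at 12.7, 13.7 and 13.4 CPM without and 12.1, 12.6 and 10.4 CPM with TWEAK. The CD58 groups did not overlap, as in 26.5% of the genes tested, but the log2 fold change of -0.18 (interval -0.39 to 0.03) did not pass (adjusted p = 0.324). Without the second TWEAK replicate both passed, CD58 at -0.24 (adjusted p = 0.0961, range over all alternatives 0.0961 to 0.632) and NECTIN2 at -0.13 (adjusted p = 0.0941, range 0.0552 to 0.895). NECTIN2 also passed with the offset for GC content and gene length (-0.14, adjusted p = 0.0552).

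MICA and MICB stayed at the limit of detection in SKBR3 with TWEAK. MICA counted 3, 3 and 1 reads without and 2, 3 and 2 with TWEAK, and MICB 0, 1 and 1 without and 0, 2 and 0 with TWEAK. The ratio of MICA was 1.04 with a counting interval of 0.31 to 3.46, so a change of less than about this width was not detectable at this depth.

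**Figure D2:**
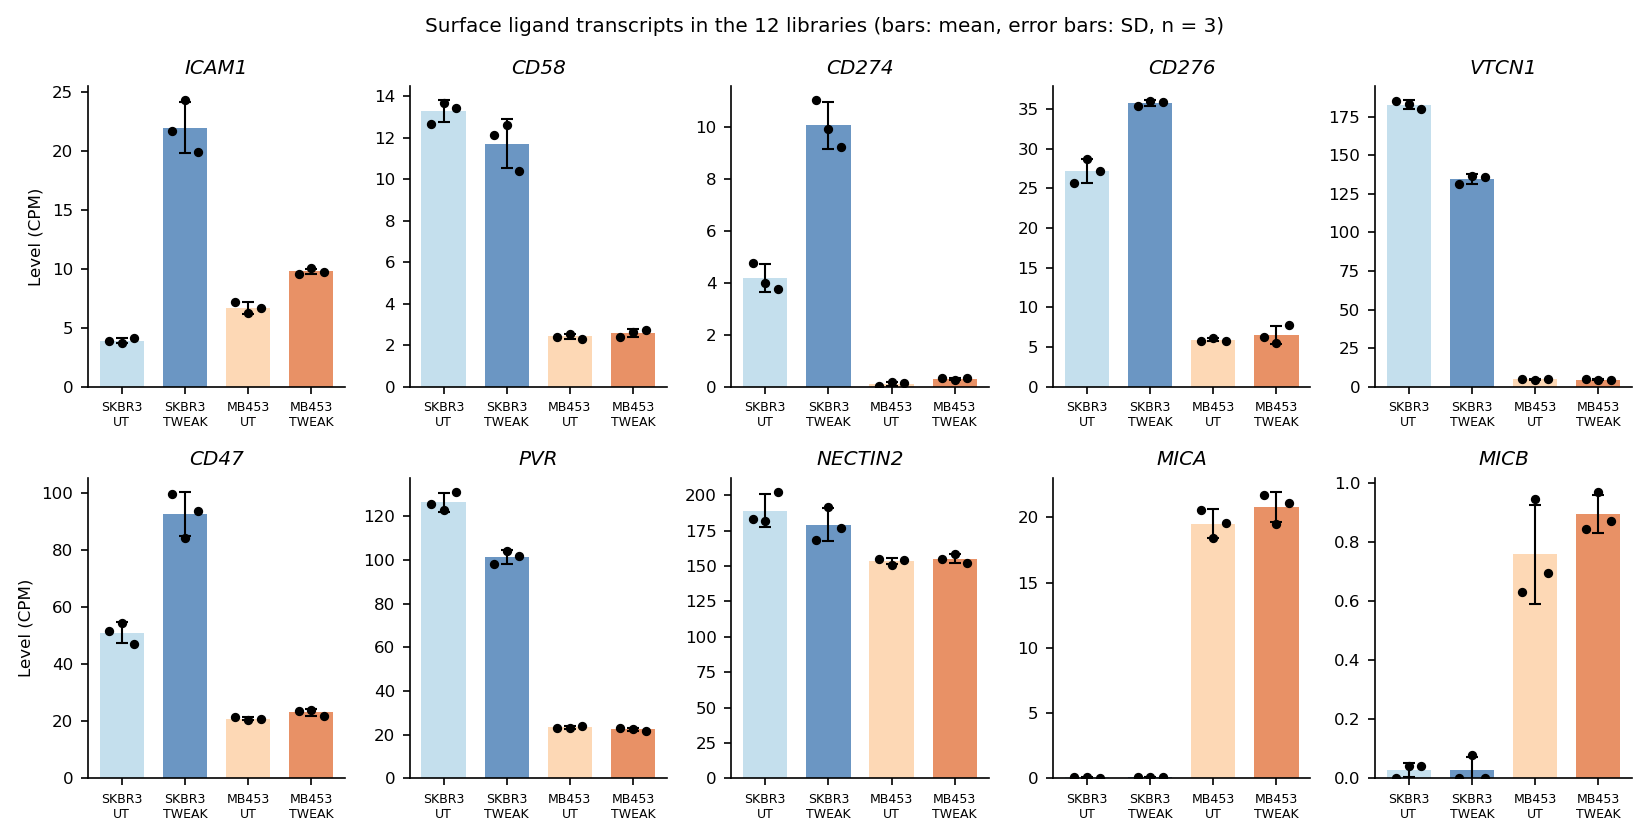
Level of each ligand gene in CPM in untreated (UT) and TWEAK-treated SKBR3 and MDA-MB-453 (MB453) cells; points are libraries, bars are means and error bars the SD (n = 3), and each panel has its own axis from 0. ICAM1, CD274 and CD47 step up and VTCN1 and PVR step down in SKBR3, ICAM1 steps up in MDA-MB-453, and MICA and MICB exceed 3 counts in MDA-MB-453 alone.

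In MDA-MB-453, TWEAK changed 1 of the 9 members tested, ICAM1. Over all 14929 genes tested in this line, 1.49% passed, 1.29% higher and 0.208% lower. This background moved widely, from 131 to 2101 genes with single libraries left out, beside 223 in the full fit. The median log2 fold change of the 9 members was 0.10, beside 0.00 over all genes tested.

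ICAM1 stood at 7.17, 6.24 and 6.65 CPM in the untreated MDA-MB-453 replicates and at 9.58, 10.0 and 9.77 CPM in the TWEAK-treated ones. The treated libraries lay close together and above all untreated ones. The log2 fold change was 0.55 (SE 0.0815), a 1.47-fold rise (adjusted p = 0.00201, rank 76 by p). TWEAK-treated MDA-MB-453 cells thus remained below the 22.0 CPM of TWEAK-treated SKBR3 cells, although untreated MDA-MB-453 cells had started higher.

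No checkpoint ligand passed in the main fit of MDA-MB-453, which did not pair the replicates. CD47 stood at 21.4, 20.5 and 20.9 CPM without and 23.8, 24.0 and 21.7 CPM with TWEAK. Its groups did not overlap, as in 15.1% of the genes tested in this line, and its log2 fold change of 0.14 (SE 0.0582, 95% interval 0.02 to 0.27) had an adjusted p of 0.394. CD276 had a log2 fold change of 0.15 (interval -0.10 to 0.41) and VTCN1 of -0.04 (interval -0.28 to 0.20). CD274 was under the filter on low counts, with 1, 5 and 4 reads without and 9, 7 and 12 with TWEAK. Every treated library held more CD274 reads than every untreated one, a ratio of 2.55 with a counting interval of 1.20 to 5.89. In a fit without the filter the adjusted p of CD274 was 0.418 (unadjusted p = 0.0158).

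The other ligands of MDA-MB-453 had log2 fold changes near 0. PVR had -0.06 (interval -0.17 to 0.06), NECTIN2 0.02 (-0.06 to 0.10) and CD58 0.10 (-0.19 to 0.39). MICA, which is well detected in this line, stood at 20.6, 18.4 and 19.6 CPM without and 21.7, 19.5 and 21.1 CPM with TWEAK. The MICA libraries overlapped, and the log2 fold change was 0.09 (interval -0.04 to 0.23, adjusted p = 0.632). MICB, at 0.632, 0.948 and 0.698 CPM without and 0.847, 0.970 and 0.873 CPM with TWEAK, had 0.23 with a wide interval (-0.28 to 0.75).

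**Figure D3:**
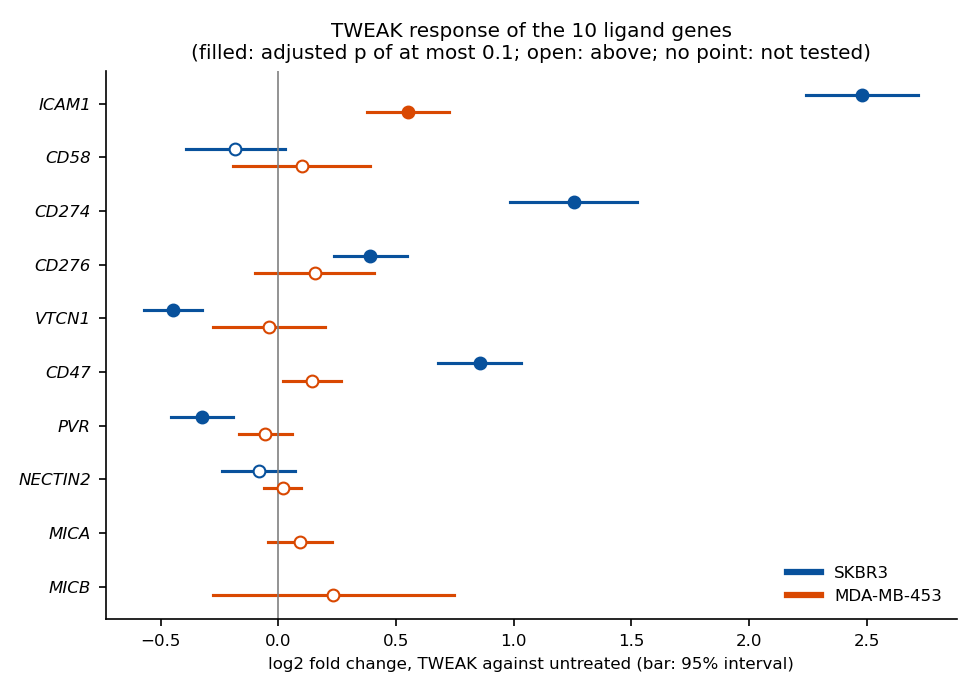
Log2 fold change of each ligand gene with TWEAK in SKBR3 (blue) and MDA-MB-453 (orange), with its 95% interval; filled points passed an adjusted p of 0.1, open points did not, and a missing point was not tested. ICAM1 is the only member with a filled point in both lines, at 2.48 and 0.55, and the intervals of NECTIN2 and CD58 span 0 in both.

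Whether the lines responded differently was tested as the difference of their log2 fold changes over all 12 libraries (MDA-MB-453 minus SKBR3), a test that 3.37% of 17201 genes passed, 1.01% higher and 2.36% lower. With single libraries left out, 394 to 1150 genes passed, beside 579 in the full fit. Of the members, 4 passed, 2 of them lower and 2 higher. ICAM1 had a difference of -1.93 (SE 0.135, adjusted p = 1.3e-07, rank 11 by p), and CD47 of -0.72 (SE 0.103, adjusted p = 0.000446). Both had the smaller log2 fold change in MDA-MB-453, where CD47 did not pass within the line. Both differences passed under every alternative run. VTCN1 (0.40, SE 0.104, adjusted p = 0.0527) and PVR (0.27, SE 0.075, adjusted p = 0.0853) differed the other way, as both fell in SKBR3. These 2 calls were less firm. VTCN1 lost its call without the first or second untreated or the first TWEAK replicate of SKBR3, and without the first or second untreated or the first or the third TWEAK replicate of MDA-MB-453 (adjusted p 0.106 to 0.21). PVR lost its call without any 1 library other than the second TWEAK replicate of SKBR3 (0.126 to 0.222), and also without the filter on low counts (0.28, adjusted p = 0.2). CD276 (-0.25, interval -0.53 to 0.04), CD58 (0.28, -0.05 to 0.61), NECTIN2 (0.10, -0.07 to 0.26) and CD274 (0.06, -0.67 to 0.79) did not pass, and for CD274 the interval admits a response in MDA-MB-453 well above or well below that of SKBR3.

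The same groups of ligands were then followed into their families, with lists chosen for their function. Earlier results of these data were known at that time. Counts of listed genes set beside the share of all genes are therefore descriptions and not independent tests. Among 12 other B7, butyrophilin and checkpoint ligands, 9 could be tested in SKBR3, of which 7 were past the filter on low counts in both groups. Of these 7, 6 rose (median log2 fold change 0.87, against 6.60% of all genes higher). CEACAM1 and TNFRSF14 were past the filter in every library of the TWEAK group alone, and their calls are not counted here. CEACAM1, an inhibitory ligand of T and NK cells, went from 0.588 to 2.33 CPM (1.99, SE 0.279, adjusted p = 0.000928). Its difference between the lines was -1.69 (adjusted p = 0.318), and it passed without both second TWEAK replicates (-1.86, adjusted p = 0.0942, range over all alternatives 0.0942 to 0.744). The butyrophilins BTN3A3 and BTN2A2 rose by 1.24 (SE 0.144, adjusted p = 0.000258) and 1.17 (SE 0.101, adjusted p = 2.94e-05). TNFRSF14, the ligand of BTLA, was low (0.258 to 0.662 CPM). Its log2 fold change of 1.32 (SE 0.406, adjusted p = 0.0833) lost its call in DESeq2 and without any 1 library other than the third TWEAK replicate (0.119 to 0.304, range over all alternatives 0.0215 to 0.304). Of the 7, BTN2A1 did not pass (0.09, adjusted p = 0.485) and is named after its values were seen. The butyrophilins are near-identical in places, so that reads may be split among them.

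In MDA-MB-453 the same list had 7 genes tested, of which 6 were past the filter on low counts in both groups. The other, LGALS9, was past it in every library of the TWEAK group alone and did not pass the test. Of the 6, 1 was called, BTN3A3 (0.49, SE 0.111, adjusted p = 0.0536), where 1.29% of all genes were higher. This call was lost in DESeq2 and without any 1 library other than the second TWEAK replicate (adjusted p 0.134 to 0.279). The difference between the lines passed for 5 of 9 genes, against 2.36% of all genes in the same direction. The 9 include CEACAM1, TNFRSF14 and LGALS9, none of which is among the 5. All 5 had the smaller response in MDA-MB-453, among them BTN2A2 (-1.07, SE 0.149, adjusted p = 0.000356) and BTN3A3 (-0.76, SE 0.179, adjusted p = 0.0291). The call of BTN3A3 was lost without the first untreated replicate of SKBR3 (0.112).

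The other families were smaller. Among 10 other adhesion and costimulation ligands, 4 were tested in SKBR3, and 2 fell and none rose, where 3.82% of all genes were lower. These were ALCAM, the ligand of CD6, from 95.6 to 71.7 CPM (-0.42, SE 0.0890, adjusted p = 0.0135), and ICOSLG, the ligand of the costimulatory receptor ICOS, from 6.46 to 4.86 CPM (-0.42, SE 0.109, adjusted p = 0.0433). The call of ICOSLG was lost without the first (0.205) or the third (0.121) untreated replicate. Of the 6 that were not tested, VCAM1, CD80 and CD86, singled out after their values were seen, had at most 3 counts in any library. Among 9 other NK receptor ligands, 6 were tested and 1 fell, NCR3LG1, the ligand of NKp30, from 12.8 to 9.14 CPM (-0.49, SE 0.149, adjusted p = 0.0821). It was -0.31 (adjusted p = 0.0322) without the second TWEAK replicate, and the call was lost without any untreated replicate or the third TWEAK replicate (0.107 to 0.286). NECTIN1, NECTIN3, NECTIN4 and CADM1 were all tested and none passed (-0.06 to 0.14). In MDA-MB-453 none of the genes tested in these 3 families passed in the fit on its 6 libraries. Without the second TWEAK replicate, ALCAM (-0.11, adjusted p = 0.0404, range over all alternatives 0.0404 to 0.94) and NCR3LG1 (-0.39, adjusted p = 0.0921) did. The difference between the lines for ALCAM was 0.33 (SE 0.0995, adjusted p = 0.114). It passed without the third untreated (0.0483), the first TWEAK (0.0643) or the second TWEAK (0.0312) replicate of SKBR3, without both second TWEAK replicates (0.0242), in DESeq2 (0.0559), without the filter on low counts (0.00735) and with the offset for GC content and gene length (0.0083).

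**Figure D4:**
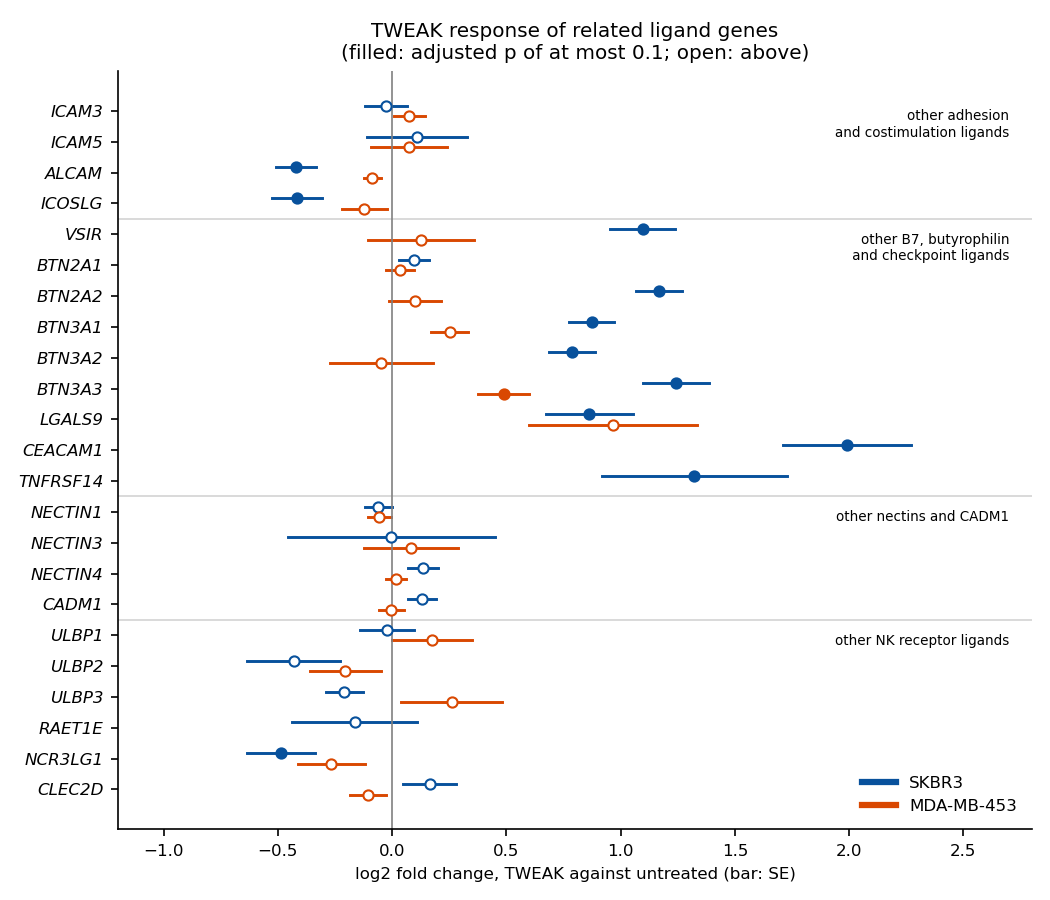
Log2 fold change with TWEAK (bars: SE) of related ligand genes tested in at least 1 line, grouped by family, in SKBR3 (blue) and MDA-MB-453 (orange); filled points passed an adjusted p of 0.1. In SKBR3 the B7, butyrophilin and checkpoint ligands past the filter in both groups lie to the right as filled points, except BTN2A1. CEACAM1 and TNFRSF14 are also drawn as filled, but their calls are not counted. In MDA-MB-453 only BTN3A3 is filled.

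Some genes known to control the ligands also passed the test. Of the 9 regulators reported, 3 rose in SKBR3, 1 rose in MDA-MB-453 and none fell, where 6.60% and 1.29% of all genes were higher. IRF1, a transcription factor of the interferon response, rose in both lines, from 6.87 to 14.7 CPM in SKBR3 (1.09, adjusted p = 4.33e-05). Its MDA-MB-453 level went from 6.16 to 14.4 CPM (1.22, SE 0.0995, adjusted p = 8.69e-06). Its difference between the lines was 0.12 (adjusted p = 0.864). STAT3 (0.48, SE 0.0547, adjusted p = 0.000238) and CMTM6 (0.41, SE 0.0693, adjusted p = 0.00356), which keeps the CD274 protein at the surface, rose in SKBR3 and had 0.01 and 0.03 in MDA-MB-453. ADAM10 and ADAM17, the proteases that shed MICA and MICB, did not pass in either line (log2 fold changes between -0.03 and 0.21) and were singled out after their values were seen.

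The response of NF-kB genes was measured as a check of the treatment. Of the 7 genes past the filter on low counts in both groups, 6 rose in SKBR3 and 4 of 7 rose in MDA-MB-453, where 6.60% and 1.29% of all genes were higher. TRAF1 in SKBR3 and TNFAIP3 in MDA-MB-453, which were past the filter in every library of the TWEAK group alone, are not in these counts. NFKB2 rose by 1.79 (SE 0.0717, adjusted p = 9.34e-08) in SKBR3 and by 1.67 (SE 0.0510, adjusted p = 3.01e-10) in MDA-MB-453. BIRC3 rose by 3.42 and 3.57 and RELB by 1.44 and 2.75, and TNFAIP3 had 1.28 and 2.44. TRAF1 had 3.30 in SKBR3 (adjusted p = 1.01e-05) and 0.42 in MDA-MB-453 (adjusted p = 0.521). The difference between the lines passed for 4 of 8 NF-kB genes, against 3.37% of all genes. The 4 include TRAF1 and TNFAIP3, whose untreated groups in SKBR3 and MDA-MB-453, respectively, were not past the filter. RELB (1.30, adjusted p = 0.00158) and TNFAIP3 (1.15, adjusted p = 0.0207) responded more in MDA-MB-453, the latter without a call when the third untreated MDA-MB-453 replicate was left out (0.135). TRAF1 (-2.89, adjusted p = 0.000146) and NFKB1 (-0.36, adjusted p = 0.0147, named after its values were seen) responded less there, as ICAM1 did. TNFRSF12A, the TWEAK receptor, was present in both lines. It rose from 66.3 to 85.7 CPM in SKBR3 (0.37, SE 0.0900, adjusted p = 0.0322), a call lost without the first (0.17) or second (0.144) untreated replicate. In MDA-MB-453 it stood at 52.1 and 58.7 CPM (0.17, SE 0.0449, adjusted p = 0.129) and passed without the second TWEAK replicate (0.00849) and without the filter on low counts (0.0568). TNFSF12, which encodes TWEAK itself, had at most 1 count in any library.

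Protein-coding genes within 50 kb of the members were examined next. Of 32 such genes, 21 were tested in SKBR3, of which 20 were past the filter on low counts in both groups. Of these 20, 4 rose, where 6.60% of all genes were higher. In MDA-MB-453, 19 were tested and 1 rose, where 1.29% of all genes were higher. Beside CD274, PLGRKT rose in SKBR3 (0.72, SE 0.109, adjusted p = 0.00167), and beside CD276, INSYN1 rose (1.22, SE 0.155, adjusted p = 0.000482). Beside NECTIN2, CBLC rose by 0.30 (SE 0.0818, adjusted p = 0.0523), a call lost without the first or second untreated or the third TWEAK replicate (0.118 to 0.231). HLA-B, 32717 bases from MICA, rose in both lines, from 1.71 to 5.45 CPM in SKBR3 (1.67, SE 0.162, adjusted p = 6.36e-05). Its MDA-MB-453 level went from 9.32 to 31.4 CPM (1.74, SE 0.119, adjusted p = 1.25e-06), while MICA did not pass in MDA-MB-453. HLA-B shares sequence with the other class I genes, so its reads may be split among them. No neighbour of ICAM1, CD58, VTCN1, PVR or MICB passed, and CD47 had none within this distance.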

How the data were processed

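Poly-A RNA-seq libraries of SKBR3 and MDA-MB-453 were grouped by the sample labels. Per the submitters' processing notes and the study's methods, the authors trimmed adaptors with Trimmomatic, mapped reads to hg38 with STAR and took raw counts per gene with featureCounts; the deposited counts are whole numbers without normalisation, and tool versions, strand setting and handling of multi-mapping reads are not given in the sources used here. Of 62696 identifiers, 61918 matched GENCODE release 44 with their version. RNA-seq of other lines, ATAC-seq and ChIP-seq were not used here.

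Genes were tested with edgeR 4.0.16 (R 4.3.3): filterByExpr, TMM, quasi-likelihood fits, two-sided, with Benjamini-Hochberg adjustment over all genes tested and calls at an adjusted p of at most 0.1. TWEAK was tested within each line on 6 libraries. The difference of the responses and the untreated lines were tested on all 12. The SE is the log2 fold change divided by the root of F. A group counts as past the filter where its 3 libraries reach the CPM of 10 counts at the median depth, a check added after seeing the data. CPM used TMM factors over 12 libraries. Ratios of low counts carry exact 95% binomial intervals (scipy 1.17.1), which cover counting error only. Reads carry no molecular identifiers. The fits were tested on simulated data.

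Alternatives were DESeq2 size factors, DESeq2 1.42.0, no filter, at least 10 counts, an adjusted p of 0.05, all 12 libraries in one fit, an offset for GC content and gene length, the replicate number as a block, both of these together, and each library left out. Leaving out both second TWEAK replicates was added after seeing the data. The members, lists and motifs were chosen with earlier results of these data known. Named genes are the members and, from each other list, up to 4 genes of largest change per line among those called, the called neighbours, and TNFRSF12A, NFKB2 and RELB. 1 gene was left out of the list of regulators and is not reported here, so the counts over the remaining 9 do not include it.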

Additional observations from a re-analysis of the deposited data

Results flagged for a closer look

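The TWEAK response of 4 ligand genes differed between the lines by the interaction test on all 12 libraries (edgeR, MDA-MB-453 minus SKBR3, log2 scale). The differences were -1.93 for ICAM1, -0.72 for CD47, 0.40 for VTCN1 and 0.27 for PVR. Among related genes named in the report, the same test separated the lines for BTN3A3 (-0.76), BTN2A2 (-1.07), STAT3 (-0.47), CMTM6 (-0.38), TRAF1 (-2.89), NFKB1 (-0.36), RELB (1.30), TNFAIP3 (1.15) and PLGRKT (-0.62). The values of single genes were not tested for a sample far from the others, since each group held 3 replicates.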

How the results depend on the processing

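No called log2 fold change of a member changed sign under the alternatives run, and the counts of members called in SKBR3 and between the untreated lines stayed within 1.5 times those reported. Without each replicate in turn, 6 to 8 members were called in SKBR3, 1 in MDA-MB-453, 2 to 4 for the difference of the responses and 10 between the untreated lines, including CD274, MICA and MICB, and 7 were tested and called there with at least 10 counts in every library. At an adjusted p of 0.05, or with the replicate number as a block, 2 members (ICAM1 and CD47) in place of 4 passed for the difference of the responses. The block also took the call of TNFRSF14 in SKBR3 (adjusted p = 0.114) and gave one to TNFRSF12A in MDA-MB-453 (0.02, and 0.0429 with the offset). With the offset for GC content and gene length and the block together, 2 members passed in MDA-MB-453, where CD47 joined ICAM1 (0.16, adjusted p = 0.0908), and so did the related gene ALCAM (-0.08, adjusted p = 0.0925). The number of all genes called moved more than that of the members. In SKBR3 it was 1633, and 2688 with the offset, 2575 with all 12 libraries in one fit, 2780 without the second TWEAK replicate and 978 and 926 without the first and the second untreated replicate. In MDA-MB-453 it was 223, and 480 without the filter, 894 with the block, 1050 with the offset and the block, 144 with all 12 libraries in one fit, 2101 without the second TWEAK replicate, 131 without the second or the third untreated replicate and 143 without the third TWEAK replicate. For the difference of the responses it was 579, and 992 with the offset, 895 with the offset and the block, 1150 without the second SKBR3 TWEAK replicate and 2077 without both second TWEAK replicates, where 4 members passed. The cause was not tested. Same-numbered untreated and TWEAK libraries deviated together with correlations of 0.169, -0.144 and -0.233 for SKBR3 and of 0.129, 0.133 and 0.0239 for MDA-MB-453. In SKBR3 the second and the third replicates did not correlate best with their own number. In MDA-MB-453 every library did, although the correlations were low. The main fits took the numbers as pairs in neither line. With the block, 894 in place of 223 genes passed in MDA-MB-453, and ICAM1 remained the only member called. Depth limits MICA and MICB in SKBR3 and CD274 in MDA-MB-453.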
